A study of Mus musculus with 20 samples.

Results

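Wild-type mouse macrophages were stimulated with zymosan with or without BAPTA-AM, a Ca2+ chelator, and the RNA of both groups was compared. The comparison rests on 9 libraries of the 20 in the series, namely 4 of WT macrophages given zymosan with BAPTA-AM and 5 of WT macrophages given zymosan alone. They were chosen by their labels, which name the genotype, the particle, the time and the chelator. The cells were bone marrow-derived macrophages (BMDMs), grown from marrow of WT mice in medium with L929-conditioned supernatant. By the study's methods the mice were C57BL/6 animals of either sex aged 15 to 25 weeks, and the cells were differentiated for 7 d. Zymosan was given for 3 h, per the labels. They state neither its dose nor that of BAPTA-AM, and the methods give 2 particles per cell and 10 µM for other assays. The 4 WT untreated libraries received neither agent, and for some genes their levels are given as the level before stimulation. Falls and rises compare the stimulated groups only, so a fall alone does not show a loss of induction by zymosan. Libraries of *Mcu*-/- macrophages entered only a fit of all 20 libraries, given as an alternative. The labels hold no vehicle control and no group given BAPTA-AM without zymosan, so an effect of the chelator on resting cells or of its solvent cannot be told apart from an effect on the zymosan response. They call the replicates biological without saying whether each came from its own mouse, so p-values measure the spread between these samples.

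Zymosan is a preparation of yeast cell wall that macrophages bind through C-type lectin receptors and Toll-like receptor 2. The lectin receptors signal through the kinase Syk and phospholipase C, which releases Ca2+ from the endoplasmic reticulum and opens store-operated channels in the plasma membrane. Cytosolic Ca2+ then acts through calmodulin. Its best-known transcriptional arm is calcineurin, a phosphatase that lets NFAT factors enter the nucleus, while calmodulin-dependent kinases act on CREB. In macrophages Ca2+ also feeds into AP-1 and NF-κB, the factors behind most cytokine genes. BAPTA-AM crosses the membrane as an ester, is cleaved inside and binds Ca2+. BAPTA also binds zinc and other metal ions, which is why metal-handling genes were examined with the rest.

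Total counts were 17.4 to 21.7 M in loaded and 20.3 to 22.4 M in unloaded libraries. Values are CPM, counts scaled to a common library size by the trimmed mean of M values (TMM), and fold changes are log2 of loaded over unloaded macrophages. Along the first principal component, which held 37.9% of the variance, all 4 loaded libraries lay on one side and all 5 unloaded libraries on the other. Of 9 macrophage markers, 8 were called lower with BAPTA-AM, and their summed level was 12065 to 12265 CPM in loaded and 13469 to 13830 CPM in unloaded libraries (exact two-sided permutation p = 0.0159, the smallest that 4 against 5 libraries give). These markers include the lipopolysaccharide co-receptor *Cd14*, which zymosan-treated cells held at a higher level than untreated ones. Neutrophil markers summed to 4.73 to 5.64 CPM in loaded and 7.38 to 8.17 CPM in unloaded libraries, and dendritic cell markers to 9.38 to 11.4 CPM and 13.4 to 15.6 CPM. Endothelial markers summed to 33.9 to 35.9 CPM and 39.6 to 43.4 CPM, and fibroblast markers to 3.62 to 4.62 CPM and 4.73 to 6.27 CPM (exact permutation p = 0.0159 for each of these 4 lists). Most of the endothelial sum was the 1 marker *Pecam1*, at 30.2 to 31.9 CPM in loaded and 35.5 to 38.8 CPM in unloaded libraries. Of the 3 endothelial markers tested, 2 were lower and 0 higher. Of 10 neutrophil markers, 7 stayed under 1 CPM in every library, *Mpo*, *Elane* and *Ly6g* among them. The same held for 7 of 9 dendritic cell, 3 of 6 endothelial, 4 of 7 fibroblast, 6 of 8 T and NK cell and 4 of 5 B cell markers, while the B cell marker *Cd79b* stood at 25.9 to 28.8 CPM in loaded and 25.7 to 31.3 CPM in unloaded libraries, and *Col1a1* and *Col1a2* of fibroblasts passed 1 CPM in every library. Mitochondrial RNA took 1.16% to 1.30% of counts in loaded and 1.15% to 1.36% in unloaded libraries (exact permutation p = 0.603), and ribosomal protein RNA 4.39% to 4.54% and 4.22% to 4.39% (exact permutation p = 0.0317). The 100 most abundant genes took 25.8% to 26.0% and 26.2% to 26.4% (exact permutation p = 0.0159). In bulk RNA fewer cells of a type and less RNA per cell cannot be told apart, and what part these shifts have in the results was not tested.

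Of 10973 genes tested, 1788, or 16.3%, were lower and 1741, or 15.9%, higher in BAPTA-AM loaded macrophages. Together that is 32.2% of genes at an edgeR adjusted p under 0.05, and counts of list members are to be read beside these shares. For 2822 genes, or 25.7%, every loaded library lay on the same side of every unloaded one. Most of these differences were small: the median size was 0.23 on the log2 scale among lower and 0.25 among higher genes. The larger changes leaned to falls. At a size of at least 1, or 2-fold, 65 genes were lower and 21 higher, and at a size of at least 0.5, 305 were lower and 191 higher. With library totals in place of TMM, 1217 genes were lower and 2868 higher, which puts 70.2% of the called genes on the higher side against 49.3% with TMM, while the median of all genes moved by less than 0.1. Where a list is given with 0 genes in a direction, edgeR also had 0 there at an unadjusted p under 0.05 and DESeq2 had 0, except that 2 mitochondrially encoded genes were lower at an unadjusted p. Intervals of single genes are 95% intervals of the edgeR fit without adjustment. Fitting all 20 libraries together, with 1 estimate of the spread for all groups, gave 741 lower and 753 higher genes, 735 and 744 of them shared with the fit of 9. Counts of list members fell with it, for cytokines from 18 to 11 lower, for interferon genes from 29 to 4 lower, for glycolysis and hypoxia genes from 18 to 7 higher and for clock genes from 10 to 8.

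**Figure D1:**
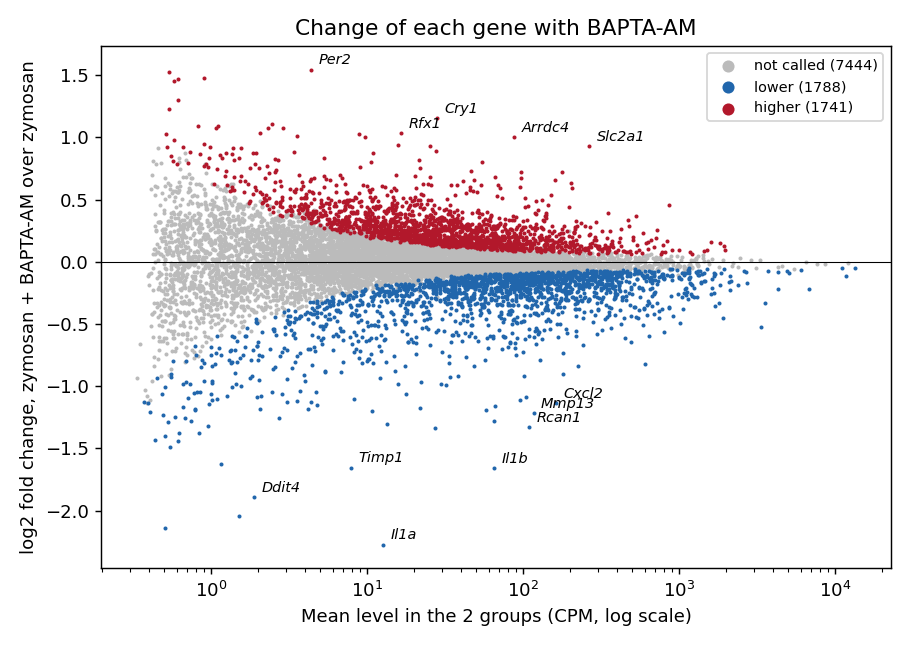
Log2 fold change of loaded over unloaded macrophages (vertical axis) against mean level in CPM (horizontal axis, log scale) for the 10973 genes tested. Blue points are the 1788 lower and red points the 1741 higher genes, grey points were not called, and the labelled genes include *Il1a* at −2.27 and *Per2* at 1.54.

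The genes that lost most with BAPTA-AM were cytokines of the IL-1 family, cytokines and chemokines of the early zymosan response, the calcineurin inhibitor gene *Rcan1*, secreted proteases and their inhibitors, and the inducible Hsp70 pair. The 15 largest falls, taken from genes that reach 10 CPM in the higher group and have separate groups, ran from −2.27 for *Il1a* to −1.10 for *Ccr3*. After the genes described singly, they hold *Gm45716* (−1.20), the membrane protein gene *Emp1* (−1.19), *Ifrd1* (−1.11) and the eotaxin receptor gene *Ccr3*. *Ccr3* lost the call with all 20 libraries in 1 fit (edgeR adjusted p = 0.0541).

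*Il1a* encodes interleukin-1α, an alarmin that acts through the same receptor as interleukin-1β. It lies on chromosome 2 from 129299610 to 129309972, minus strand (mm10), next to *Il1b*. The loaded libraries held 4.46, 4.52, 4.30 and 4.15 CPM and the unloaded libraries 21.1, 23.1, 21.4, 18.98 and 20.6 CPM, against 0 to 0.151 CPM in untreated cells. The groups lay far apart, with every loaded library close to the others, and the log2 fall of 2.27 (SE 0.08, edgeR adjusted p = 1.99e-15) was the largest of all genes tested. *Il1b* (ENSMUSG00000027398), which encodes the precursor that caspase-1 cleaves to active interleukin-1β, had 32.6, 27.4, 29.9 and 35.4 CPM with BAPTA-AM and 92.1, 102, 97.6, 102 and 102 CPM without. No loaded library came near an unloaded one, with a fall of 1.66 (SE 0.05, edgeR adjusted p = 3.99e-16), and the loaded level stayed above the 1.06 to 1.83 CPM of untreated cells. The receptor antagonist gene *Il1rn* fell as well, but by 0.56 (edgeR adjusted p = 1.90e-10), from 959 ± 63.9 to 649.8 ± 40.97 CPM (SD, n = 5 and 4). Across all 20 libraries *Il1rn* did not pass (edgeR adjusted p = 0.0535). *Il18* fell by 0.48 and the inflammasome sensor gene *Nlrp3* by 0.38 (edgeR adjusted p = 5.42e-05 and 1.46e-07). Of the 16 tested genes of the family and the inflammasome, 9 were lower and 0 higher (median log2 fold change −0.21, against 0.01 over all genes). *Il33*, an alarmin of the same family, had 38.5, 43.05, 36.1 and 40.3 CPM in loaded and 47.4, 35.7, 36.4, 39.1 and 35.8 CPM in unloaded libraries. These ranges overlap, and the 95% interval of its log2 fold change ran from −0.11 to 0.17.

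Cytokine genes were the list with the highest share of calls, 18 lower and 1 higher of 22 tested (median −0.44). *Il12b*, the p40 subunit of IL-12 and IL-23, was at 41.1, 30.7, 37.9 and 41.01 CPM in loaded and 98.1, 84.3, 85.2, 99.7 and 90.7 CPM in unloaded cells. It fell by 1.28 (SE 0.07, edgeR adjusted p = 7.80e-13), and untreated cells had 0 to 0.114 CPM. *Ifnb1*, interferon-β, was at 45.4, 38.04, 30.95 and 47.99 CPM with the chelator and 83.3, 99.5, 99.7, 82.96 and 91.4 CPM without it. The loaded libraries spread more here, but the highest still lay below every unloaded library, and the fall was 1.16 (SE 0.08, edgeR adjusted p = 1.33e-10). *Il6* had 129, 124, 133 and 144 CPM in loaded and 201, 194, 200.03, 207 and 203 CPM in unloaded libraries, without overlap and with a fall of 0.60 (edgeR adjusted p = 1.00e-11). The IL-6 family member *Osm* fell by 0.94, the IL-27 subunit gene *Il27* by 0.57 and the vasoconstrictor gene *Edn1* by 0.84 (edgeR adjusted p = 3.16e-08, 3.47e-10 and 6.33e-11).

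*Tnf*, a cytokine gene that zymosan and bacterial products switch on within the first hours, moved little. It stood at 1383, 1398, 1409.9 and 1386 CPM in loaded and 1527, 1548, 1525, 1576 and 1556 CPM in unloaded libraries. The ranges do not overlap, yet the log2 fall was 0.15 (SE 0.02, edgeR adjusted p = 2.64e-06). *Il10*, the main anti-inflammatory cytokine of macrophages, was at 24.98, 27.6, 29.7 and 29.2 CPM with and 31.5, 30.1, 28.3, 27.7 and 26.9 CPM without BAPTA-AM, and its fold change had a 95% interval of −0.18 to 0.07. Fitted with the other groups, *Tnf* did not pass (edgeR adjusted p = 0.549).

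Chemokine genes moved one way: 13 of 17 were lower and 0 higher (median −0.34). The neutrophil attractant *Cxcl2* fell most, from 219.9, 228, 233, 215 and 221 CPM in the unloaded to 110.3, 91.97, 90.8 and 113 CPM in the loaded libraries (log2 fold change −1.14, SE 0.05, edgeR adjusted p = 7.19e-14). Its close relatives *Cxcl3* (−0.86) and *Cxcl1* (−0.43) were lower too, at under 10 CPM in loaded cells. Among CC chemokines the size of the fall differed widely between neighbours of one family. *Ccl12*, a monocyte attractant, had 68.1, 67.7, 73.1 and 72.8 CPM in loaded and 126.2, 131, 128, 139.6 and 141 CPM in unloaded libraries (log2 fold change −0.92, edgeR adjusted p = 4.66e-14). *Ccl5* fell by 0.64, *Ccl9* by 0.59, *Ccl7* by 0.49 and *Ccl2* by 0.22 (edgeR adjusted p at most 5.52e-07). *Ccl3* fell by 0.30 and *Ccl4*, its neighbour in the genome, by 0.07 (edgeR adjusted p = 9.92e-10 and 0.00798). Of the CXCR3 ligands, *Cxcl9* fell by 0.88 and *Cxcl10*, at 4611 ± 176 CPM without the chelator, by 0.22 (edgeR adjusted p = 1.29e-08 and 2.34e-07). *Ccl5*, *Ccl3*, *Ccl4* and *Cxcl10* lost the call with all 20 libraries in 1 fit (edgeR adjusted p = 0.0815, 0.555, 0.887 and 0.0655), and *Ccl4* also with library totals (0.602). The call of *Ccl4* was also lost with library totals (edgeR adjusted p = 0.602). How the counting treated reads that several members of such families share is not given, so small differences between them are uncertain.

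Secreted proteases and their inhibitors held 3 of the 15 largest falls. *Timp1*, an inhibitor of matrix metalloproteinases, was at 3.13, 3.89, 4.81 and 3.38 CPM in loaded and 12.2, 10.9, 11.3, 14.1 and 10.98 CPM in unloaded libraries, a fall of 1.66 (SE 0.12, edgeR adjusted p = 1.11e-10). *Mmp13*, a collagenase, had 74.1, 68.8, 70.96 and 67.7 CPM with and 163, 161, 168, 168 and 156 CPM without BAPTA-AM. Replicates of both groups lay close together, and its fall of 1.21 (SE 0.04) had the lowest adjusted p of all named genes (edgeR, 7.76e-17). *Serpinb2*, which inhibits plasminogen activators, was at 13.7, 12.7, 14.7 and 12.4 CPM and 29.7, 27.7, 32.4, 32.8 and 28.01 CPM (log2 fold change −1.18, edgeR adjusted p = 4.49e-12). The urokinase receptor gene *Plaur* fell by 0.69, the membrane-bound protease gene *Mmp14* by 0.55 and cyclooxygenase-2, *Ptgs2*, by 0.50 (edgeR adjusted p = 1.86e-10, 1.69e-11 and 5.36e-09). In all, 16 of 27 genes of matrix proteolysis and prostaglandin synthesis were lower. The 1 that was higher is the terminal prostaglandin E synthase gene *Ptges* (0.41, edgeR adjusted p = 0.00434). Across all 20 libraries *Plaur*, *Ptgs2* and *Ptges* did not pass (edgeR adjusted p = 0.0538, 0.159 and 0.362).

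**Figure D2:**
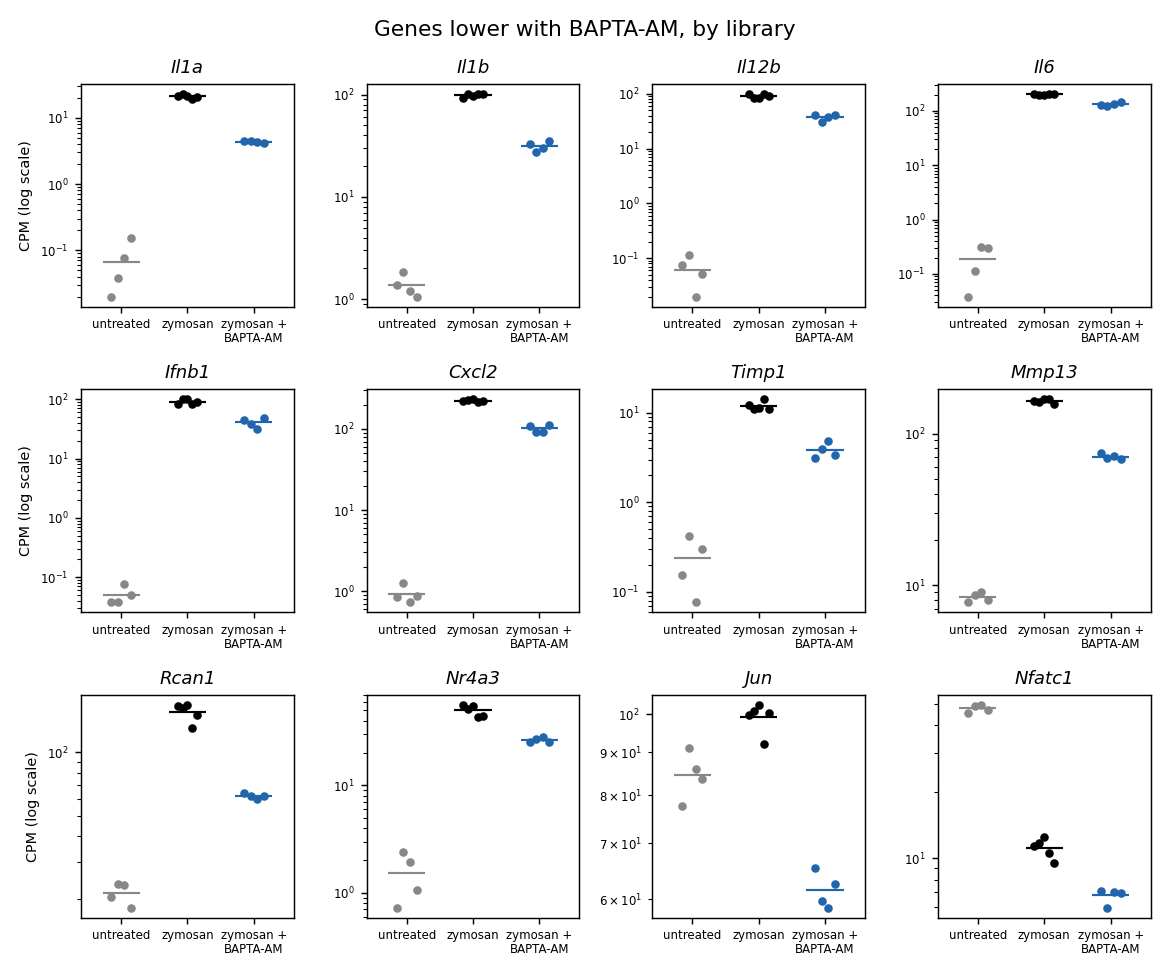
CPM (vertical axis, log scale) of 12 genes that fell with BAPTA-AM, in each untreated (grey), zymosan (black) and zymosan with BAPTA-AM (blue) library, with a bar at each group mean and libraries with no count drawn at 0.02 CPM. In all 12 the blue points lie below the black points, and in all but *Jun* and *Nfatc1* the grey points lie below the blue ones.

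Genes of the Ca2+ signaling pathway itself moved unevenly. *Rcan1*, whose protein binds and restrains calcineurin and whose shorter transcript is a classical NFAT target, lies on chromosome 16 from 92391953 to 92470867, minus strand (mm10). It had 64.02, 61.7, 60.2 and 62.3 CPM in the 4 loaded and 166, 164, 169, 131 and 151 CPM in the 5 unloaded libraries, against 18.2 to 23.5 CPM in untreated cells. The groups were far apart, with a fall of 1.33 (SE 0.06, edgeR adjusted p = 2.02e-14). Among NFAT genes, *Nfatc1*, which is known to be driven by NFAT itself, was at 7.12, 5.98, 7.02 and 6.98 CPM in loaded and 11.3, 11.7, 12.5, 10.5 and 9.50 CPM in unloaded libraries. Its fall was 0.71 (SE 0.09, edgeR adjusted p = 1.82e-06), and untreated cells had 45.3 to 49.4 CPM. *Nfatc2* fell by 0.31 (edgeR adjusted p = 0.0107) with overlapping libraries, and *Nfatc3* had a 95% interval of −0.10 to 0.12. Fitted with the other groups, *Nfatc2* did not pass (edgeR adjusted p = 0.154). *Ppp3ca*, a catalytic subunit, had a 95% interval of −0.08 to 0.08. Of the 17 tested genes of this list, 5 were lower and 3 higher, and the median of 0.01 was that of all genes. Without BAPTA-AM replicate 1 or replicate 2 the higher genes numbered 1.

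The EGR and NR4A genes, which many cells switch on within an hour of a Ca2+ rise, also split. *Nr4a3*, an orphan nuclear receptor, was at 25.4, 27.3, 28.1 and 25.6 CPM with BAPTA-AM and 56.4, 51.9, 54.8, 43.3 and 44.4 CPM without. It fell by 0.92 (SE 0.07, edgeR adjusted p = 3.40e-10), and *Nr4a1* by 0.91 (edgeR adjusted p = 8.89e-05) from 5.17 ± 1.09 CPM (SD, n = 5). The remaining member, *Nr4a2*, had 2.32 to 2.84 CPM in loaded and 1.53 to 2.48 CPM in unloaded libraries, ranges that overlap, and was called higher by 0.46 (edgeR adjusted p = 0.0386). DESeq2 (adjusted p = 0.0730), the replicate block (edgeR adjusted p = 0.115), all 20 libraries in 1 fit (0.427) and 6 of 9 fits without 1 library each did not keep that call, with adjusted p from 0.0156 to 0.105 over those 9. *Egr2* fell by 0.69 (edgeR adjusted p = 0.00251). *Egr1* spread widely between replicates, from 19.01 to 36.5 CPM in loaded and 30.2 to 42.4 CPM in unloaded libraries, and its interval of −0.60 to −0.05 did not pass the threshold over all genes (edgeR adjusted p = 0.0696). It passed with no filter beyond 1 count (edgeR adjusted p = 9.96e-05), without zymosan replicate 4 (edgeR adjusted p = 0.0260) and without BAPTA-AM replicate 1 or 4 (0.0114 and 0.0203). Of the 13 tested genes of the EGR and NR4A list, 3 were lower and 4 higher (median −0.12), with 5 lower when zymosan replicate 4 was left out. The EGR corepressor genes *Nab1* and *Nab2* rose by 0.28 and 0.25, the latter with overlapping libraries (edgeR adjusted p = 1.14e-07 and 0.000963).

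Of 29 genes of store-operated entry, release channels and pumps, 10 were lower and 5 higher, and 2 higher without BAPTA-AM replicate 1 or 4. The store sensor gene *Stim1* had an interval of −0.09 to 0.11 and the channel gene *Orai1* of −0.29 to 0.03, while *Orai2* fell by 0.48 (edgeR adjusted p = 1.57e-08), with 48.9 to 53.6 CPM in unloaded and 33.4 to 37.8 CPM in loaded libraries. The plasma membrane pump gene *Atp2b4* fell by 1.04 (edgeR adjusted p = 0.000127) at under 5 CPM, and *Atp2b1*, another pump gene, had an interval of −0.08 to 0.07. *Saraf*, which slows store-operated entry, rose by 0.16 (edgeR adjusted p = 0.000201). Of 17 genes of calmodulin and its kinases 4 were lower and 1 higher, which is 29.4% called, near the 32.2% of all genes. The mitochondrial uniporter complex had the lowest share of calls after the mitochondrially encoded genes, 2 higher and 0 lower of 14, or 14.3%. The pore gene *Mcu* had 8.50, 6.22, 6.62 and 6.94 CPM in loaded and 6.40, 6.14, 5.68, 5.83 and 5.42 CPM in unloaded cells, overlapping ranges with an interval of 0.05 to 0.48 (edgeR adjusted p = 0.0537). It passed with library totals (0.0177) and without zymosan replicate 1 or BAPTA-AM replicate 2 (edgeR adjusted p = 0.0480 and 0.0315), and the list's higher genes ran from 0 to 2 with 1 library left out, at 0 without zymosan replicate 4 or BAPTA-AM replicate 4. Of EF-hand, S100 and annexin genes, 16 of 34 were lower and 2 higher, among them *S100a10* (−0.43) and *Anxa1* (−0.25; edgeR adjusted p = 1.82e-08 and 3.41e-07). *Anxa1* lost the call with all 20 libraries in 1 fit (edgeR adjusted p = 0.406).

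Transcription factors between receptor and cytokine gene showed graded falls. Of 24 AP-1 and other immediate-early genes, 13 were lower and 3 higher. *Jun* had 65.4, 59.8, 58.7 and 62.6 CPM in loaded and 99.8, 101, 103, 92.04 and 100.3 CPM in unloaded libraries, a fall of 0.68 (SE 0.04, edgeR adjusted p = 6.86e-12). Its partner *Fosl2* fell by 0.56 (edgeR adjusted p = 2.42e-07), whereas *Junb* fell by 0.13 and *Atf3* by 0.17 (edgeR adjusted p = 0.000124 and 1.89e-06). Both calls were lost in the fit of all 20 libraries (edgeR adjusted p = 0.657 and 0.638). *Klf2*, a factor known to restrain myeloid activation, was at 11.8, 9.47, 11.9 and 12.3 CPM with and 7.01, 6.56, 6.63, 6.75 and 6.45 CPM without BAPTA-AM and rose by 0.76 (edgeR adjusted p = 3.17e-07).

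Of 33 genes of NF-κB and its regulators, 18 were lower and 6 higher (median −0.11). The subunit genes differed by little and in both directions. *Rel* fell by 0.15, *Nfkb2* by 0.27 and *Rela* by 0.11 (edgeR adjusted p = 0.00106, 2.14e-08 and 0.0141), while *Relb* rose by 0.15 and *Nfkb1* by 0.06 (edgeR adjusted p = 0.00652 and 0.0405). The calls of *Rela*, *Relb* and *Nfkb1* were lost across all 20 libraries (edgeR adjusted p = 0.467, 0.286 and 0.533). That of *Rela* was also lost with library totals (0.226) and at 0.0515 without loaded replicate 3. For *Nfkb1*, leaving out any 1 library other than loaded replicate 3 ended the call, with adjusted p of 0.0283 to 0.179 over the 9 such fits, as did the replicate block (0.106), the size factors of DESeq2 (0.0570), no filter beyond 1 count (0.0835) and at least 10 counts in every library (0.0591). *Nfkbia*, the inhibitor gene that NF-κB itself induces, was at 639 to 660.01 CPM in loaded and 614 to 631 CPM in unloaded libraries and had an interval of 0.01 to 0.10 (edgeR adjusted p = 0.0617), which passed with library totals (0.000302). Other feedback genes of the pathway did fall, *Nfkbie* by 0.61, *Nfkbiz* by 0.35 and *Tnfaip3* by 0.28 (edgeR adjusted p = 3.14e-10, 9.56e-08 and 1.47e-07). The largest fall of the list was in *Malt1*, the protease of the complex that links Syk to NF-κB, at 78.5, 73.9, 78.1 and 70.8 CPM in loaded and 135, 124, 121, 125 and 117 CPM in unloaded libraries (log2 fold change −0.73, edgeR adjusted p = 4.28e-12). Across all 20 libraries *Nfkbie* and *Tnfaip3* did not pass (edgeR adjusted p = 0.0577 and 0.616).

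Several other listed genes passed by small margins that depended on the fit. *Fos*, the partner of JUN in AP-1, fell by 0.16 (edgeR adjusted p = 0.0355), and the call was lost with library totals (0.172), with the replicate block (0.0867) and at 0.109 without unloaded replicate 2, 0.0814 without unloaded replicate 3, 0.0534 without unloaded replicate 5, 0.0566 without loaded replicate 2 and 0.144 without loaded replicate 3. *Actb*, which encodes cytoskeletal actin, fell by 0.05 (edgeR adjusted p = 0.0381), and did not pass with DESeq2 (0.0549), with library totals, where its direction turned (0.723), or at 0.0921 without unloaded replicate 1, 0.116 without unloaded replicate 2, 0.0771 without unloaded replicate 3, 0.0789 without loaded replicate 1 and 0.0717 without loaded replicate 3. Falls of 0.12 in *Ppp3r1*, the regulatory subunit of calcineurin, 0.09 in *Ebi3*, a subunit of IL-27, 0.07 in *Acod1*, which makes itaconate, and 0.23 in *Ddit3*, the stress factor CHOP, did not pass with library totals (0.0504, 0.362, 0.515 and 0.0554), against edgeR adjusted p = 0.000724, 0.0153, 0.00964 and 0.0142 with TMM, and for *Ddit3* also at 0.0545 without loaded replicate 4. The zinc exporter gene *Slc30a1* rose by 0.13 and the importer gene *Slc39a10* by 0.50 (edgeR adjusted p = 0.0167 and 0.00375), the first of which was lost at 0.0507 without unloaded replicate 5 and 0.123 without loaded replicate 2. Of these genes, all but *Ppp3r1* failed across all 20 libraries, with edgeR adjusted p = 0.832 for *Fos*, 0.761 for *Actb*, 0.75 for *Ebi3*, 0.893 for *Acod1*, 0.715 for *Ddit3*, 0.236 for *Slc30a1* and 0.275 for *Slc39a10*.

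Of 27 tested genes of zymosan receptors and their proximal signaling, 16 were lower and 2 higher. The listed lectin receptor gene *Clec7a* is absent from the deposited counts and was not tested. *Tlr2* fell by 0.28 and its co-receptor *Cd14* by 0.37 (edgeR adjusted p = 9.96e-07 and 8.88e-12). The scavenger receptor gene *Msr1* had 189, 178, 193 and 185 CPM in loaded and 295, 293, 286, 311 and 298 CPM in unloaded libraries and fell by 0.67 (edgeR adjusted p = 1.04e-13). Fitted with the other groups, *Msr1* did not pass (edgeR adjusted p = 0.102). *Clec5a*, which couples to DAP12, fell by 0.71 (edgeR adjusted p = 4.72e-08). *Syk* had an interval of −0.08 to 0.02 and the C-type lectin gene *Clec4e* of −0.12 to 0.01. In the list of cytokine receptors and JAK-STAT genes, 21 of 39 were lower and 4 higher, the latter falling to 1 without zymosan replicate 1. *Il21r* (−0.81), the IL-10 receptor gene *Il10ra* (−0.60) and *Il4ra* (−0.55) were the lower genes with the lowest adjusted p (edgeR, 3.67e-12, 1.46e-12 and 3.28e-12), whereas the interferon-γ receptor gene *Ifngr1* rose by 0.59 (edgeR adjusted p = 4.17e-10). *Il21r* had 122 to 131 CPM in untreated, 41.7 to 44.1 CPM in unloaded and 23.4 to 25.8 CPM in loaded libraries. For *Il10ra* these ranges were 171 to 179, 251 to 272 and 167 to 179 CPM.

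Interferon-stimulated genes were lower by a modest margin, 29 of 41 with 1 higher, a call that DESeq2 did not make, and a median of −0.18. The immunity-related GTPase gene *Iigp1* fell most in this list, by 0.58, with 319.6 to 415 CPM in unloaded and 209.7 to 282 CPM in loaded libraries, and the RNA helicase gene *Dhx58* by 0.53 (edgeR adjusted p = 3.00e-07 and 2.89e-10). The factor genes *Irf1*, *Irf7* and *Irf8* fell by 0.21, 0.29 and 0.37 (edgeR adjusted p = 3.00e-07, 4.34e-05 and 1.45e-06). *Iigp1*, *Dhx58*, *Irf1* and *Irf7* lost the call with all 20 libraries in 1 fit (edgeR adjusted p = 0.103, 0.248, 0.0655 and 0.854). The genes of costimulation and antigen presentation were lower for 13 of 25 and higher for 0, with *Cd80* at −0.67 and *Cd86* at −0.45 (edgeR adjusted p = 1.60e-06 and 6.33e-10). Effector enzyme genes were lower for 11 of 16 and higher for 0. *Nos2*, inducible nitric oxide synthase, spread from 21.6 to 33.4 CPM in loaded and 24.1 to 37.04 CPM in unloaded libraries and did not pass the threshold (interval −0.51 to −0.06, edgeR adjusted p = 0.0519). It passed with no filter beyond 1 count and with at least 10 counts in every library (edgeR adjusted p = 0.000303 and 0.0488), and without zymosan replicate 3 or BAPTA-AM replicate 3 (edgeR adjusted p = 0.00784 and 0.000940).

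Stress genes went in several directions. The inducible Hsp70 genes *Hspa1b* and *Hspa1a* are near-identical copies whose reads cannot be fully separated. *Hspa1b* was at 16.7, 12.97, 15.4 and 16.8 CPM in loaded and 36.3, 40.2, 40.3, 39.4 and 38.9 CPM in unloaded libraries, and *Hspa1a* at 7.504, 6.61, 7.92 and 8.65 CPM and 19.2, 19.2, 17.99, 19.4 and 18.9 CPM. Neither gene had overlapping groups, and the falls were 1.33 and 1.30 (edgeR adjusted p = 1.95e-13 and 4.21e-12). Other heat shock genes changed by far less, *Dnajb1* by −0.32 and *Hspa8* by −0.23 (edgeR adjusted p = 6.14e-06 and 1.81e-09), *Hsp90aa1* rose by 0.12 (edgeR adjusted p = 0.000410), and the list had 8 lower and 3 higher of 26. Across all 20 libraries *Hspa8* and *Hsp90aa1* did not pass (edgeR adjusted p = 0.0939 and 0.220).

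Genes of chaperones of the endoplasmic reticulum, the main Ca2+ store, and of the unfolded protein response leaned up. Of 26 tested, 12 were higher and 2 lower. *Dnajb9* rose by 0.53 and *Herpud1* by 0.44, and the master chaperone gene *Hspa5* by 0.15 (edgeR adjusted p = 1.21e-08, 3.40e-10 and 1.77e-05). *Herpud1* had 234 to 245 CPM in untreated, 159 to 173 CPM in unloaded and 213 to 229 CPM in loaded libraries. For *Hspa5* these ranges were 1078 to 1133, 1671 to 1825 and 1900 to 1951 CPM. Fitted with the other groups, *Hspa5* did not pass (edgeR adjusted p = 0.513). *Ppp1r15a*, whose protein reverses the translation block of stressed cells, fell from 751, 836, 833, 652 and 779 CPM to 481, 449, 359.6 and 449 CPM (log2 fold change −0.82, edgeR adjusted p = 6.51e-10). Of 29 ATF4 target genes 9 were higher and 5 lower. *Ddit4*, an inhibitor of mTORC1, was at 0.617, 1.12, 0.679 and 0.766 CPM in loaded and 2.62, 2.93, 3.27, 2.91 and 3.10 CPM in unloaded libraries, a fall at a low level that was next to that of *Il1a* among genes named here (log2 fold change −1.89, edgeR adjusted p = 4.98e-08). The glutathione-degrading enzyme gene *Chac1* fell by 1.13 and the stress gene *Nupr1* by 0.75, while the amino acid transporter gene *Slc7a5* rose by 0.53 (edgeR adjusted p = 1.02e-07, 1.69e-13 and 1.44e-10).

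Genes of zinc and iron handling moved in both directions, 9 lower and 9 higher of 27. The metallothioneins, which bind zinc and are induced by it, were lower with BAPTA-AM. *Mt2* had 84.5, 95.5, 102 and 96.4 CPM in loaded and 184, 169.7, 153, 161 and 148 CPM in unloaded libraries, a fall of 0.78 (SE 0.05, edgeR adjusted p = 8.25e-11), and *Mt1* fell by 0.44 (edgeR adjusted p = 2.67e-07). Of the iron genes, the transferrin receptor gene *Tfrc* rose by 0.50 and the iron exporter gene *Slc40a1* by 0.52 (edgeR adjusted p = 1.73e-11 and 1.30e-05). *Slc40a1* lost the call with all 20 libraries in 1 fit (edgeR adjusted p = 0.648). Whether binding of zinc by the chelator has a part in any change was not tested.

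Among genes outside these lists, replication-dependent histone genes were noticed after the values were seen. Of the 13 that were tested, 11 were lower and 1 higher, with a median of −0.98. The linker histone gene *Hist1h1c* was at 67.4, 65.2, 62.4 and 71.2 CPM in loaded and 174, 142, 155, 109.7 and 128 CPM in unloaded libraries (log2 fold change −1.09, edgeR adjusted p = 6.16e-10). Transcripts of these genes mostly lack a poly(A) tail, and how RNA was selected for the libraries is not given in the sources used here. Genes of DNA replication had 8 higher and 1 lower of 25 (median 0.10), and those of mitosis 4 higher and 4 lower of 24. The shares called, 36.0% and 33.3%, are near the 32.2% of all genes. The mitosis list had 2 higher without BAPTA-AM replicate 1 and 2 lower without zymosan replicate 4 or 5 or BAPTA-AM replicate 4.

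The genes that rose with BAPTA-AM included those of the circadian clock, glucose uptake and glycolysis, and glucose-sensing arrestins. Under the same conditions the 15 largest rises ran from 1.16 for *Cry1* to 0.75 for *Fam162a*. Besides the genes described singly they hold the endocytic adaptor gene *Ston2* (1.02), the zinc finger factor gene *Plagl1* (0.94), the mitochondrial adenylate kinase gene *Ak4* (0.93), the actin-binding protein gene *Palld* (0.89), the acyl-CoA synthetase gene *Acsl3* (0.82) and *Mex3d* (0.80). Others encode nuclear proteins. *Rfx1*, a winged-helix transcription factor, was at 23.4, 23.6, 22.9 and 19.1 CPM in loaded and 10.1, 10.9, 11.6, 10.7 and 10.9 CPM in unloaded libraries (log2 fold change 1.03, edgeR adjusted p = 8.92e-11), and untreated cells had 19.4 to 22.8 CPM. *Mbd5*, a methyl-CpG-binding domain protein, rose by 1.00 (edgeR adjusted p = 1.38e-09).

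Clock genes were higher for 10 of 20 and lower for 1 (median 0.25). *Cry1* (ENSMUSG00000020038, chromosome 10 from 85131700 to 85185064, minus strand), a repressor of the clock's activators, had 37.2, 40.03, 38.03 and 38.8 CPM in the loaded and 17.9, 18.1, 16.2, 16.1 and 18.2 CPM in the unloaded libraries. The values are tight within each group, and the rise was 1.16 (SE 0.05, edgeR adjusted p = 1.04e-13). *Per2*, the partner of cryptochromes, was at 6.93, 6.80, 5.72 and 6.62 CPM with BAPTA-AM and 2.32, 1.83, 2.91, 1.80 and 2.31 CPM without. Its rise of 1.54 (SE 0.13, edgeR adjusted p = 3.52e-09) was the largest of all genes tested, though at a low level, and untreated cells had 9.12 to 11.4 CPM. *Cry2* rose by 0.84, the repressor gene *Bhlhe41* by 0.87, the output factor gene *Tef* by 0.62 and *Nr1d2* by 0.45 (edgeR adjusted p = 2.83e-06, 9.60e-08, 2.86e-09 and 6.13e-09). *Nfil3*, which represses the genes that TEF activates, was the member that fell, from 73.9, 75.8, 74.4, 66.4 and 68.5 CPM to 43.3, 42.4, 39.9 and 40.5 CPM (log2 fold change −0.79, edgeR adjusted p = 4.00e-12). The activator gene *Arntl* had an interval of −0.25 to 0.31, *Per1* of −0.13 to 0.30 and *Nr1d1* of −0.46 to 0.30, while *Clock* rose by 0.20 (edgeR adjusted p = 0.00132). The hour of collection is not given in the labels, and whether it differed between the groups was not tested.

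**Figure D3:**
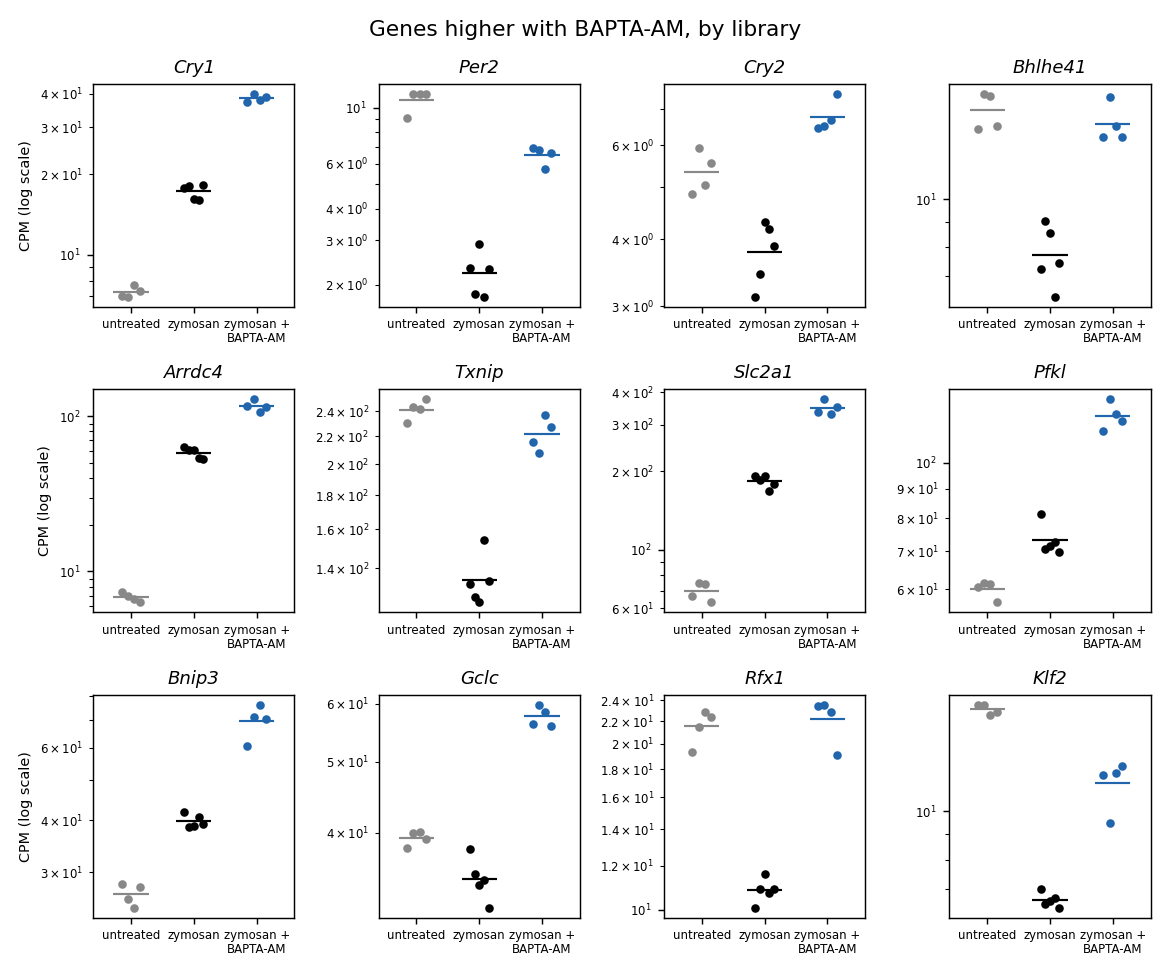
CPM (vertical axis, log scale) of 12 genes that rose with BAPTA-AM, in each untreated (grey), zymosan (black) and zymosan with BAPTA-AM (blue) library, with a bar at each group mean. In all 12 the blue points lie above the black points, while the grey points lie above the blue for *Per2* and *Klf2* and below the black for *Cry1*, *Arrdc4*, *Slc2a1*, *Pfkl* and *Bnip3*.

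Glucose metabolism leaned higher. Of 28 genes of glycolysis and the hypoxia response 18 were higher and 3 lower (median 0.15). The glucose transporter gene *Slc2a1*, on chromosome 4 from 119108711 to 119137983, plus strand (mm10), had 337, 376, 331 and 352 CPM in loaded and 192, 185, 191, 168 and 179 CPM in unloaded libraries, against 63.3 to 75.1 CPM in untreated cells. It rose by 0.93 (SE 0.04, edgeR adjusted p = 1.62e-14). *Pfkl*, the liver-type phosphofructokinase, was at 114, 129, 122 and 118 CPM and 81.4, 70.5, 71.5, 72.7 and 69.7 CPM and rose by 0.73 (edgeR adjusted p = 1.00e-11). The lactate exporter gene *Slc16a3* rose by 0.68 and the mitophagy receptor gene *Bnip3*, a target of hypoxia-inducible factor, by 0.80 (edgeR adjusted p = 1.82e-11 and 2.68e-11). The highest value of the list was that of the oxygen-sensing hydroxylase gene *Egln3*, named after its values were seen, at 2.85 to 3.47 CPM in loaded and 1.21 to 2.04 CPM in unloaded libraries (log2 fold change 1.08, edgeR adjusted p = 2.45e-05). Hexokinase 2, *Hk2*, which catalyses the first step and is induced by zymosan, was among the 3 that fell (−0.46, edgeR adjusted p = 2.52e-09).

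*Arrdc4* and *Txnip* encode arrestins that lower glucose uptake and whose genes respond to glucose through the MondoA and ChREBP factors. *Arrdc4* had 117, 129, 106 and 116 CPM with BAPTA-AM and 63.1, 61.03, 61.04, 53.98 and 52.97 CPM without, a rise of 1.00 (SE 0.05, edgeR adjusted p = 9.16e-13), where untreated cells had 6.36 to 7.36 CPM. *Txnip* had 216, 208, 237 and 227 CPM and 133, 127, 125, 155 and 134 CPM, a rise of 0.72 (SE 0.05, edgeR adjusted p = 4.00e-11). The pair differs in its untreated level, since *Txnip* stood at 230.04 to 249.9 CPM before stimulation, above both stimulated groups on average. Of the 11 genes of this list 6 were higher and 2 lower, and it shares *Slc2a1* and *Hk2* with the list of glycolysis and hypoxia.

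Antioxidant and lipid synthesis genes rose in smaller steps. Among NRF2 target genes 10 of 25 were higher and 2 lower. *Gclc*, the catalytic subunit of the rate-limiting enzyme of glutathione synthesis, was at 56.3, 59.8, 58.5 and 55.97 CPM in loaded and 38.02, 35.1, 33.97, 34.5 and 31.7 CPM in unloaded libraries (log2 fold change 0.73, edgeR adjusted p = 1.88e-11). *Srxn1*, sulfiredoxin, rose by 0.65, and *Gclm* and *Nfe2l2*, the gene of NRF2 itself, by 0.35 and 0.24 (edgeR adjusted p = 8.47e-12, 1.06e-06 and 4.90e-06). Heme oxygenase 1, *Hmox1*, went the other way, from 1135, 1055, 994, 1064 and 993 CPM to 717, 812, 843 and 723 CPM (log2 fold change −0.44, edgeR adjusted p = 1.96e-08). Across all 20 libraries *Srxn1*, *Gclm* and *Hmox1* did not pass (edgeR adjusted p = 0.169, 0.0831 and 0.365). Of 28 genes of sterol and fatty acid synthesis 14 were higher and 4 lower, or 2 lower without zymosan replicate 2 or 3 or BAPTA-AM replicate 1 or 3 (median 0.13). The sterol synthesis gene *Msmo1* rose by 0.62 and *Sc5d* by 0.55, and fatty acid synthase, *Fasn*, by 0.36 (edgeR adjusted p = 2.61e-11, 2.16e-09 and 4.12e-07). Fitted with the other groups, *Fasn* did not pass (edgeR adjusted p = 0.130).

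Genes whose symbols begin with Zfp, most of which encode zinc finger proteins, were tested for 283 members, of which 46 were higher and 20 lower. That is 23.3% called, below the 32.2% of all genes, with a median of 0.10 and values, called or not, from −0.81 to 1.30. *Zfp292* rose by 0.69 and *Zfp91* by 0.28, whereas *Zfp36*, whose protein degrades cytokine mRNAs, fell by 0.43 (edgeR adjusted p = 9.05e-09, 1.22e-07 and 2.43e-11). Its relative *Zfp36l1* fell by 0.81 and *Zfp36l2* rose by 0.20 (edgeR adjusted p = 2.19e-06 and 0.000240). Of 14 tested genes of MAP kinase phosphatases and of the Spry and Spred families, 5 were lower and 2 higher. Among them *Dusp1* fell by 0.40 and *Dusp16* by 0.41, and *Dusp6* rose by 0.49 (edgeR adjusted p = 1.24e-05, 4.58e-09 and 1.49e-05). Log2 fold changes of that list, called or not, ran from −1.25 to 0.49. *Zfp36* and *Dusp1* lost the call with all 20 libraries in 1 fit (edgeR adjusted p = 0.109 and 0.453). Chromatin regulators were even, 14 higher and 13 lower of 48, and so were LXR targets, 3 and 3 of 10. Actin genes were lower for 10 and higher for 3 of 23. Genes of mRNA decay and feedback, which include *Zfp36*, were lower for 10 and higher for 4 of 22. Of 11 mitochondrially encoded genes 1 was higher and 0 lower, or 9.09% called.

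**Figure D4:**
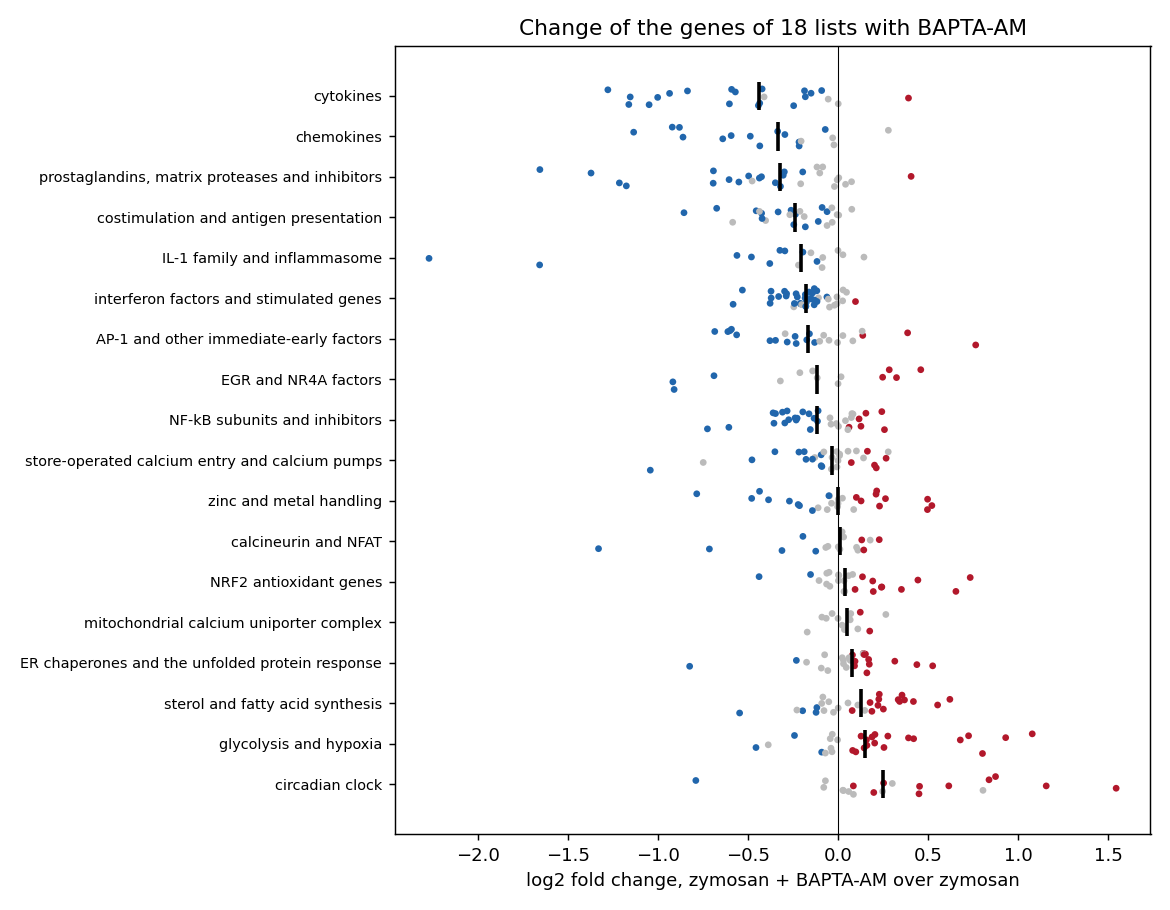
Log2 fold change of loaded over unloaded macrophages (horizontal axis) for the tested members of 18 gene lists (rows, ordered by median). Each point is a gene, blue where lower, red where higher and grey where not called, and the black bar marks the median, from −0.44 for cytokines to 0.25 for clock genes.

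The regions before the transcription start were examined for letters that the fold change did not use. RefSeq promoter windows of 300 bases, 250 before and 50 after a start, were found for 8863 of 10969 tested symbols, or 80.8%. The AP-1 motif TGANTCA, which reads the same on both strands, stood in 5.09% of windows of tested genes, in 13.9% of windows of genes lower by at least 0.5 and in 7.5% of windows of genes higher by at least 0.5. Over all windows of the table its share was 7.81%. The E-box CACGTG, also the same on both strands and bound by clock and Mondo factors, stood in 10.3%, 8.43% and 19.5% of these windows, and in 7.15% of all. The letters ACGTG (HRE), the core that hypoxia-inducible factor binds and that every E-box holds, stood on either strand in 26.0%, 20.8% and 37.0%. The NF-κB letters GGG, any 2 bases and TTTCC, searched on both strands like the rest, stood in 1.75%, 4.22% and 0.5%. The interferon response element (ISRE) letters GAAA, any 2 bases and GAAA, stood in 3.40%, 5.12% and 1%, the NFAT letters TGGAAAA in 4.70%, 7.83% and 3.5%, and the cAMP response element (CRE) TGACGTCA in 3.09%, 1.81% and 4%. The metal response element (MRE) letters TGCACNC stood in 12.5%, 12.05% and 16.5%, the heat shock element (HSE) letters GAA, any 2 bases, TTC, any 2 bases and GAA in 0.522%, 0.904% and 0%, and a TATA box, TATAAA, in 7.04%, 15.7% and 7.5%. These shares describe letters and not binding, and the windows differ in composition, with a median GC content of 60.7% in tested genes, 57.3% in the set lower and 63.2% in the set higher by at least 0.5.

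Of the 15 largest falls, 14 had a window, and 6 of these held the AP-1 letters within the 250 bases before a start. Of the 15 largest rises, 14 had a window, and 7 held an E-box. The falls held an E-box in 1, HRE letters in 2 and TATA letters in 5. The rises held AP-1 letters in 1, HRE letters in 10 and TATA letters in 1. A gene counted here if any of its windows held the letters in these 250 bases. No such share over all tested genes was computed, so these counts cannot be set beside the shares per window above. For AP-1, the regions of *Il1a*, *Mmp13*, *Serpinb2* and the internal start of *Rcan1* are printed here, and for NF-κB that of *Cxcl2*, as examples from the 15 largest falls, with that of the cytokine gene *Il6*, which is not among these 15. *Ccr3*, one of the 15, also held both motifs and is not printed. They lie at chr2:129309973-129310222, minus strand (*Il1a*), chr9:7272264-7272513, plus strand (*Mmp13*), chr1:107511173-107511422, plus strand (*Serpinb2*), chr16:92400079-92400328, minus strand (*Rcan1*), chr5:90903649-90903898, plus strand (*Cxcl2*) and chr5:30012864-30013113, plus strand (*Il6*) of GRCm38.p6. Each is the 250 bases before the start, 5′ to 3′ in the direction of transcription, from RefSeq. Only the motif a region was printed for is in capitals, and letters of other motifs searched were not marked. Such letters include those of AP-1, TGAGTCA, near the 5′ end of *Il6*, and those of CRE in *Rcan1*. They also include the NFAT letters, on the other strand, in *Rcan1*, *Mmp13* and *Cxcl2*.
*Il1a*: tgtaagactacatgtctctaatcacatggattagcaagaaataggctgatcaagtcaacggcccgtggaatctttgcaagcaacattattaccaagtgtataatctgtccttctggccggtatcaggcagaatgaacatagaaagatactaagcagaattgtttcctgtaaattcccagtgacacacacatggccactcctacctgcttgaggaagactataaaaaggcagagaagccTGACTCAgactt
*Mmp13*: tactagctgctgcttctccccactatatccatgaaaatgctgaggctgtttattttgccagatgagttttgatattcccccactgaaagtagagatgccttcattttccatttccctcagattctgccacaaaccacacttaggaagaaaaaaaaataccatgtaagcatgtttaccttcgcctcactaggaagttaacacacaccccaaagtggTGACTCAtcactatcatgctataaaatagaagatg
*Serpinb2*: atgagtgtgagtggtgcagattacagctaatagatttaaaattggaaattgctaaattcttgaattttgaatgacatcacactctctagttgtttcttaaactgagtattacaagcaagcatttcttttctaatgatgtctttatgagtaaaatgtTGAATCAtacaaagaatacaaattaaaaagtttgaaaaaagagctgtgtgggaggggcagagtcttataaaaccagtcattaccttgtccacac
*Rcan1*: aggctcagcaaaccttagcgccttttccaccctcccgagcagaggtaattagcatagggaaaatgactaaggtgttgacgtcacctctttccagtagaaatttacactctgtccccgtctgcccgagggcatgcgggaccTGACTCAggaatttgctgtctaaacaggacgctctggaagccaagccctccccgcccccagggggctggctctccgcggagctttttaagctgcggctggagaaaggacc
*Cxcl2*: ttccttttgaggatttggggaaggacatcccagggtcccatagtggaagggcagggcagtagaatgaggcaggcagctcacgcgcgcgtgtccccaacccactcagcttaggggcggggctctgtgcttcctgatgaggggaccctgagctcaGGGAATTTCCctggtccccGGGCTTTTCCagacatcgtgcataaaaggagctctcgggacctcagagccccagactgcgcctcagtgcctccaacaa
*Il6*: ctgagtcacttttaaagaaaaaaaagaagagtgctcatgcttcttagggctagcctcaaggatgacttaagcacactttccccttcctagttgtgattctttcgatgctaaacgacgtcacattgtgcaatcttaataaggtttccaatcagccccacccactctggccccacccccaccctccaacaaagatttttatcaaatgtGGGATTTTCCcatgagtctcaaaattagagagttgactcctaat
The AP-1 letters began 12 bases before the start in *Il1a*, 35 in *Mmp13*, 94 in *Serpinb2* and 110 in *Rcan1*. The NF-κB letters occurred 2 times in *Cxcl2*, at 97 and 78 bases before the start, and once in *Il6*, at 44 bases. *Il1b* and *Timp1*, with the largest falls after *Il1a* among called genes that reached 10 CPM without overlap, held neither the AP-1 nor the NF-κB letters in this window.

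For the rises the regions of *Cry1*, *Arrdc4*, *Bhlhe41* and *Bnip3* are shown, which each hold 1 E-box, in capitals. They lie at chr10:85185055-85185304, minus strand (*Cry1*), chr7:68749239-68749488, minus strand (*Arrdc4*), chr6:145865421-145865670, minus strand (*Bhlhe41*) and chr7:138909507-138909756, minus strand (*Bnip3*) of GRCm38.p6, and the source and direction are as above.
*Cry1*: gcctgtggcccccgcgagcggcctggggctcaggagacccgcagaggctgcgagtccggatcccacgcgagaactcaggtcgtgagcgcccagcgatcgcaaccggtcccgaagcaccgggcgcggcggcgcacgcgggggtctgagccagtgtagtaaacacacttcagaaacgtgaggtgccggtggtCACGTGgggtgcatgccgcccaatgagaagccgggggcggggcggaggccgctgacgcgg
*Arrdc4*: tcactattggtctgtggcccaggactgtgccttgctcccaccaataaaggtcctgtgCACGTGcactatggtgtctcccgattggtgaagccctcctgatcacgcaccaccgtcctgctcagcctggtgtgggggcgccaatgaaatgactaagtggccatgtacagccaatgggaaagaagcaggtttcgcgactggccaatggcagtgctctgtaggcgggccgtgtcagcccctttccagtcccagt
*Bhlhe41*: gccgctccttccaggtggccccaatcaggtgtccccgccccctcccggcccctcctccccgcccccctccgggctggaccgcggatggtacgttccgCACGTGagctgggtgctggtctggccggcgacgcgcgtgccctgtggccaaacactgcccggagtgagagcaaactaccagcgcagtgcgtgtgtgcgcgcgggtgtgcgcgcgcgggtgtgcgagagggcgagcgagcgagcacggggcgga
*Bnip3*: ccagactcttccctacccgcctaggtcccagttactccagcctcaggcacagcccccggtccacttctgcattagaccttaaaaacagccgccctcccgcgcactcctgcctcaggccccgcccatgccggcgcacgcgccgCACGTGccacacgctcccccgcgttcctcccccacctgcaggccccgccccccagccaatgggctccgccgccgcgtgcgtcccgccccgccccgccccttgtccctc
The E-box began 60 bases before the start in *Cry1*, 193 in *Arrdc4*, 153 in *Bhlhe41* and 108 in *Bnip3*. *Rfx1*, *Ston2* and *Txnip* held no E-box in this window.

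**Figure D5:**
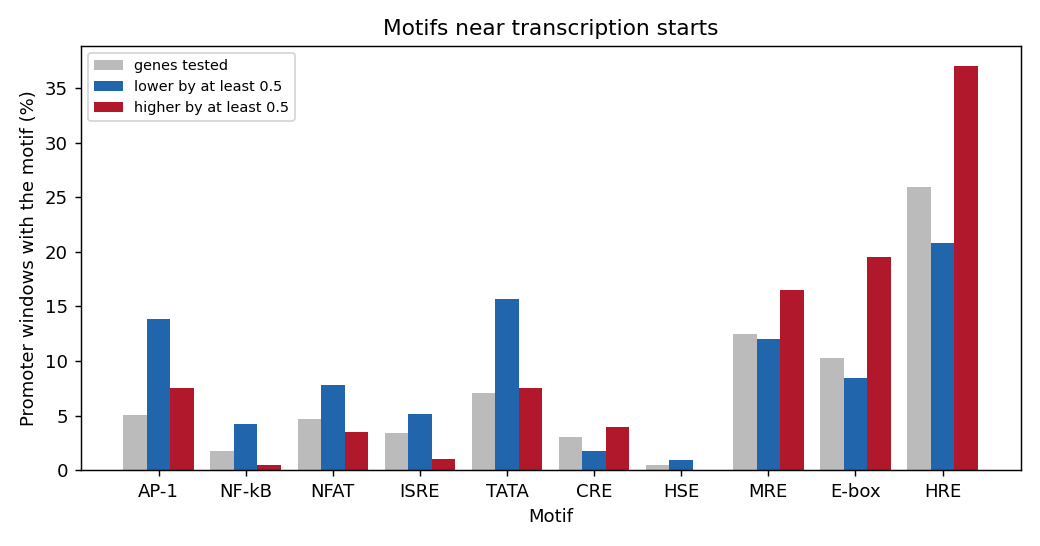
Share of promoter windows holding each of 10 motifs (vertical axis, percent, bars from 0) among all tested genes (grey), genes lower by at least 0.5 (blue) and genes higher by at least 0.5 (red) on the log2 scale. The blue bar stands above the grey one for AP-1 (13.9% and 5.09%), and the red bar for the E-box (19.5% and 10.3%).

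The called genes also differed in build from the genes tested. By GENCODE M21, genes higher by at least 0.5 had a median transcript of 3952 bases and a median 3′ untranslated part of 1821 bases, against 2946 and 993 bases over all tested genes. Genes lower by at least 0.5 had 2971 and 1091 bases. The letters TATTTAT, the core of AU-rich elements that shorten the life of many cytokine mRNAs, stood in the 3′ untranslated part of 28.1% of tested genes, 36.3% of genes lower by at least 0.5 and 37.6% of genes higher by at least 0.5. The share was thus above that of all genes on both sides, and a longer part holds such letters more often.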

How the data were processed

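RNA was taken from WT BMDMs untreated, given zymosan, or given zymosan with BAPTA-AM. The authors trimmed reads with cutadapt, aligned them with STAR to mm10 and counted reads per gene with HTSeq, and the deposited values are raw counts per gene and library, with no normalization. Versions are not given in the sources used here. Column names were matched to sample titles, and all 9 libraries of the comparison were used, with total counts of 17.4 to 22.4 M. Counts were tested with edgeR 4.0.16 in R 4.3.3 (quasi-likelihood test, TMM scaling, filterByExpr, 1 coefficient for BAPTA-AM, no covariate), and p-values were adjusted by Benjamini-Hochberg over the 10973 genes that passed the filter of 21963 entries. The threshold was an adjusted p of 0.05. Sums over markers and shares of counts were compared by an exact two-sided permutation test. The fit was also run on simulated data with 200 changed genes. That is far fewer than the 3529 called here, so the run cannot judge the scaling where so many genes differ. Members and gene lists were chosen with earlier results of these data known. Of 166 tested genes fixed for naming with those lists, 104 are named and the rest only counted, a choice made with their values known. Some listed genes are not reported here. Beyond these the text draws on the 6 genes of lowest adjusted p per list, 4 Zfp genes and the 15 largest falls and rises from 10 CPM with separate groups; *Egln3* and *Hist1h1c* were added after their values were seen. Alternatives were DESeq2 1.42.0, its size factors, library totals, other count filters, a replicate block, all 20 libraries in 1 fit and each library left out. Motifs were searched in RefSeq promoter windows of GRCm38.p6, the assembly behind mm10, and gene spans are from GENCODE M21.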

Additional observations from a re-analysis of the deposited data

Results flagged for a closer look

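Within groups of 4 or 5 libraries, single values that lay far from the others were looked for in 336 sets of values, and 14 were found. Chance gives about 1 in 20, and no explanation was tested. *Arntl* was lowest in unloaded replicate 3, at 2.54 CPM against 3.16 to 3.38 CPM in the rest of its group. *Dhx58* was highest in unloaded replicate 1, at 154 CPM against 137 to 141 CPM in the rest of its group. *Il18* was highest in unloaded replicate 4, at 22.9 CPM against 18.5 to 19.8 CPM in the rest of its group. *Jun* was lowest in unloaded replicate 4, at 92 CPM against 99.8 to 103 CPM in the rest of its group. *Nr1d2* was highest in unloaded replicate 1, at 100.2 CPM against 85.9 to 89 CPM in the rest of its group. *Pfkl* was highest in unloaded replicate 1, at 81.4 CPM against 69.7 to 72.7 CPM in the rest of its group. *Col1a2* was highest in BAPTA-AM loaded replicate 4, at 2.3 CPM against 1.41 to 1.51 CPM in the rest of its group. *Dusp1* was lowest in BAPTA-AM loaded replicate 3, at 206 CPM against 241 to 244 CPM in the rest of its group. *Herpud1* was lowest in BAPTA-AM loaded replicate 3, at 213 CPM against 228 to 229 CPM in the rest of its group. *Msmo1* was lowest in BAPTA-AM loaded replicate 2, at 62.2 CPM against 65.6 to 66.1 CPM in the rest of its group. *Nfatc1* was lowest in BAPTA-AM loaded replicate 2, at 5.98 CPM against 6.98 to 7.12 CPM in the rest of its group. *Rfx1* was lowest in BAPTA-AM loaded replicate 4, at 19.1 CPM against 22.9 to 23.6 CPM in the rest of its group. *Zfp36* was highest in BAPTA-AM loaded replicate 2, at 439 CPM against 412 to 416 CPM in the rest of its group. Mitochondrial RNA was lowest in BAPTA-AM loaded replicate 2, at 1.16% against 1.28 to 1.3% in the rest of its group.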

How the results depend on the processing

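The fit of all 20 libraries gave 741 lower and 753 higher genes, where the 9 libraries alone gave 1788 and 1741, and 735 and 744 genes were shared. That fit adds the untreated and *Mcu*-/- libraries to the estimate of the spread. Library totals in place of TMM gave 1217 lower and 2868 higher genes. A minimum log2 fold change of 0.5 left 305 lower and 191 higher genes, and a minimum of 1 left 65 and 21. Other settings stayed within 1.5 times: DESeq2 had 1723 lower and 1497 higher, its size factors in edgeR 1844 and 1676, no filter beyond 1 count 1849 and 1679, and at least 10 counts in every library 1843 and 1653. With 1 library left out, the lower genes numbered 1619 to 1767 and the higher 1434 to 1703. The replicate block gave 1580 lower and 1416 higher genes. Deviations of same-numbered libraries from their group means correlated at −0.02, 0.08, −0.07 and −0.003 for numbers 1 to 4. Pairs with unlike numbers ran from −0.08 to 0.12. Such values cannot show whether same-numbered libraries shared a mouse, a batch or a day. Of 145 called genes named in the text, *Pecam1* left aside, 102 stayed called under each alternative above other than the minimum folds. The fit of all 20 libraries lost 42 of these calls, library totals 7, the replicate block 3, DESeq2 2, its size factors and each other count filter 1, and leaving out 1 library 2 to 4. *Actb* was the 1 of these 145 genes to change direction, at a log2 fold change of 0.0088 with library totals. The cause of these losses was not tested. At 17.4 to 22.4 M counts, genes under about 1 CPM rest on few reads, and a change there may not have been detectable at this depth.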
